A study of Mus musculus with 8 samples.

Results

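The TNF receptor superfamily and its ligands were examined in mouse regulatory T cells through 10 genes: the receptors Tnfrsf4, Tnfrsf9, Tnfrsf18, Tnfrsf1b, Tnfrsf25, Cd27 and Fas, and the ligands Cd40lg, Ltb and Tnfsf8. They were found by gene symbol among 17097 genes named on the array, of which 11413 were bright enough to be tested, and all 10 passed that filter, being above their array's 40th percentile on all 8 arrays. The RaptorKO group held 4 samples from CD4(cre)Raptor(fl/fl) mice, whose Cd4-driven Cre recombinase removes a floxed part of Rptor, and the WT group held 4 samples from wild-type mice. All mice had the C57Bl/6J background, and in both groups the cells were sorted as CD4+CD25+ from spleen and peripheral lymph nodes and RNA was taken without treatment. A Cre driven by Cd4 acts in developing T cells in general, so other T cells of these mice lack Raptor too, and whether the WT mice carry Cre or a floxed allele is not stated in the labels. Separate animals are not stated for the samples of a group, so the p-values below cover only how these samples vary, part of which may be technical.

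Receptors of the TNF superfamily sit on the cell surface and bind trimeric ligands, most of them made as membrane proteins by neighbouring cells. Costimulatory members such as OX40 (Tnfrsf4), 4-1BB (Tnfrsf9), GITR (Tnfrsf18), TNFR2 (Tnfrsf1b) and CD27 recruit TRAF adaptor proteins and pass signals to NF-kappaB transcription factors, while Fas and DR3 (Tnfrsf25) carry a death domain in the cytoplasm. Regulatory T cells are known for carrying GITR, OX40, 4-1BB and TNFR2, and several of these receptors are induced by T cell receptor signalling. Rptor encodes Raptor, the scaffold of the kinase complex mTORC1.

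Several of these genes share a chromosome, though only Tnfrsf4 and Tnfrsf18 lie close together. In RefSeq's annotation of assembly GRCm38.p6, 6 of the 10 members were on chromosome 4, and Tnfrsf4 and Tnfrsf18 were neighbours with 0 protein-coding genes between them. RefSeq promoter windows, the 250 bases before each annotated start, matched 9 of the 10 members, all but Cd40lg, with 11 windows in all. The windows were searched on both strands for the consensus kappaB motif, to which NF-kappaB factors can bind, and for an AP-1 motif, TGANTCA, and no match of one overlapped a match of the other. The kappaB motif was in 2 of the 11 windows, those of Tnfrsf9 (its downstream start) and Ltb, and was in 3.90% of 32851 windows of the same length over all genes. The AP-1 motif was in 2 of the 11 windows, that of Tnfrsf9 and that of Fas, against 6.75% of all windows. The motifs were chosen with the results known, so these matches describe the letters of the windows and are neither binding sites nor causes.

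The 2 windows with a kappaB motif are printed because they belong to members whose differences between the groups, given below, were among the 3 largest in size. Each runs 5′ to 3′ along the gene's strand and ends at the base before the start, and capitals mark the motifs. The Tnfrsf9 window is chr4:150927749-150927998 on the plus strand and holds 2 overlapping kappaB matches beginning at positions -43 and -42 from the start and an AP-1 match at -15; 0.213% of all windows held both motifs. The Ltb window is chr17:35194257-35194506 on the plus strand and holds a kappaB motif on the minus strand, its leftmost base at position -87.
Tnfrsf9: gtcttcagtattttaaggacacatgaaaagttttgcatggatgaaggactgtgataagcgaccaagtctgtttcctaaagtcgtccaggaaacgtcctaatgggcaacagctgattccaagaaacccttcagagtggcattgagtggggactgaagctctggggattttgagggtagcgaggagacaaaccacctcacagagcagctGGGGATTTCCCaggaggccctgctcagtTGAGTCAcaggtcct
Ltb: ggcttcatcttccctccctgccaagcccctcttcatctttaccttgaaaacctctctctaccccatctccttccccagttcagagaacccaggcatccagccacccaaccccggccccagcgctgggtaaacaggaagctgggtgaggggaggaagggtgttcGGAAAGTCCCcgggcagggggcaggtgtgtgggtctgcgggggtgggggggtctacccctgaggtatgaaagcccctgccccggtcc

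The arrays were first checked against their labels. Foxp3, the lineage factor of regulatory T cells, read 10.96 to 11.04 on the log2 intensity scale in RaptorKO and 10.79 to 10.96 in WT, and Il2ra, which encodes CD25, read 11.29 to 11.42 in RaptorKO and 11.14 to 11.47 in WT. Cd4 read 10.66 to 10.93 in RaptorKO and 10.96 to 11.07 in WT. All 3 defining genes were therefore well above the arrays' 40th percentiles of 4.69 to 4.81 in every sample. Rptor itself read 6.63, 6.47, 6.50 and 6.95 in RaptorKO 1 to 4, against 6.83, 6.85, 7.03 and 6.75 in WT 1 to 4, a difference of -0.23 that did not pass the test (limma, adjusted p = 0.491). A dimmer Rptor probe set was lower in every RaptorKO sample, with a difference of -0.42 (adjusted p = 0.120 with every probe set tested). Where these probe sets lie relative to the deleted part is not known here, so they do not check the genotype. Replicates 1 and 2 differed from replicates 3 and 4 in sex-linked transcripts in both genotypes: Xist read 10.88 to 11.18 in the first pair and 5.04 to 5.62 in the other, and the Y-linked Kdm5d read 3.74 to 4.39 in the first pair and 8.22 to 8.51 in the other. Both genotypes are present in each pair, and values within each pair are given below.

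None of the 10 members passed the test between RaptorKO and WT. The fit was limma over 11413 genes with Benjamini-Hochberg adjustment, and it called 224 genes at an adjusted p under 0.05, or 1.96% of those tested, 94 higher and 130 lower in RaptorKO. At an unadjusted p under 0.05 there were 2 members, Tnfrsf9 and Cd40lg, against 13.0% of all genes tested. The same 2 members had RaptorKO and WT values that did not overlap, which held for 8.82% of all genes. From 10 members these counts set nothing apart for the family. Of the members, 7 had a positive difference and 3 a negative one, with a median of 0.048 on the log2 scale, and over all tested genes 5435 were positive and 5978 negative, with a median of -0.0092. The unadjusted 95% interval of a member's difference reached between 0.23 and 0.41 to each side, so smaller differences could not be resolved with 4 arrays in each group. The test adjusted over all genes asks for more: Tnfrsf9 differed by 0.49, beyond this reach, and did not pass.

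**Figure D1:**
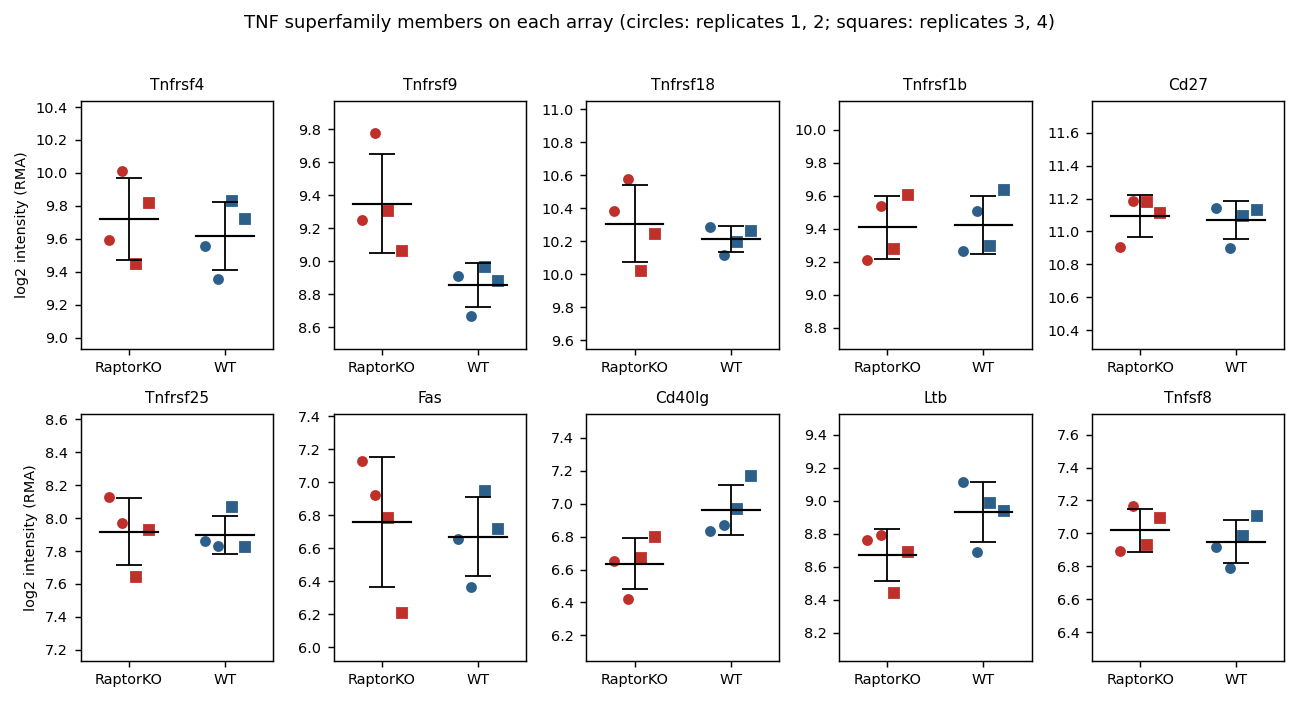
log2 RMA intensity of the 10 members on each array, with RaptorKO in red on the left and WT in blue on the right of each panel; points are arrays, the horizontal line is the mean and the error bar 1 SD (n = 4), and every vertical axis covers the same span. The groups do not overlap for Tnfrsf9, higher in RaptorKO, and Cd40lg, lower in RaptorKO, and overlap for the other 8 members.

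Tnfrsf9 encodes 4-1BB, a costimulatory receptor induced on activated T cells and present on activated regulatory T cells. It read 9.25, 9.78, 9.31 and 9.06 in RaptorKO 1 to 4, against 8.91, 8.67, 8.97 and 8.88 in WT 1 to 4. Every RaptorKO value was above every WT value, with RaptorKO 2 the highest and RaptorKO 4 closest to WT. The mean was 9.35 ± 0.30 in RaptorKO and 8.86 ± 0.13 in WT (SD, n = 4 each), a difference of 0.49 (SE 0.15, 95% interval 0.17 to 0.81) or 1.41-fold. In limma the unadjusted p was 0.00562 and the adjusted p 0.133, so the difference did not pass over all genes. The RaptorKO samples alone ran from 9.06 to 9.78. It passed in 1 of 20 alternative analyses, after quantile normalization (adjusted p = 0.0485).

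Tnfrsf9 was measured by 3 probe sets. The second read 9.32, 9.57, 9.11 and 8.99 in RaptorKO 1 to 4, against 8.81, 8.62, 8.76 and 8.79 in WT 1 to 4. Its groups were also separate, and its difference was 0.50 (adjusted p = 0.120 with all 27343 probe sets above the filter tested, of which 304 or 1.11% were called). The third probe set was above the 40th percentile on 0 of the 8 arrays and was not tested; it read 3.60 to 3.79 in RaptorKO and 3.37 to 3.59 in WT. The bright probe sets share the same RNA, so their like differences are not separate evidence.

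**Figure D2:**
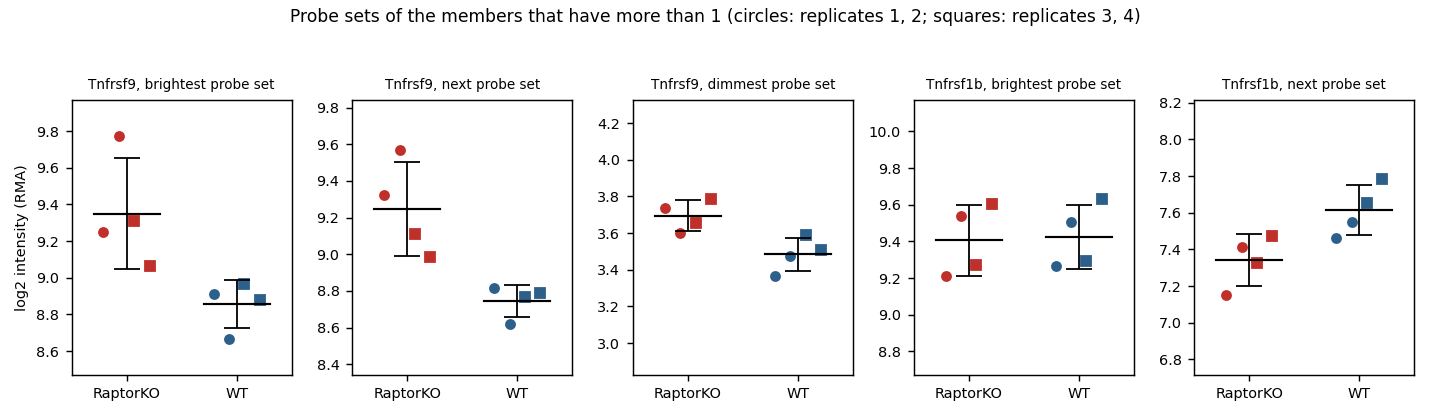
log2 RMA intensity of each probe set of the 2 members that have more than 1, with RaptorKO on the left and WT on the right; points are arrays, lines means and bars 1 SD (n = 4). All 3 Tnfrsf9 probe sets read higher in RaptorKO, whereas the Tnfrsf1b probe sets differ, with means close to each other in the brighter one and a lower RaptorKO mean in the other.

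The other costimulatory receptors overlapped between the groups. Tnfrsf4, which encodes OX40, read 9.59, 10.01, 9.45 and 9.82 in RaptorKO 1 to 4, against 9.56, 9.36, 9.83 and 9.72 in WT 1 to 4, and RaptorKO 2 was the highest sample. Its difference was 0.10 (SE 0.14, 95% interval -0.21 to 0.42, adjusted p = 0.852). Tnfrsf18, which encodes GITR, is the neighbouring gene; it read 10.38, 10.58, 10.02 and 10.25 in RaptorKO 1 to 4, against 10.29, 10.11, 10.20 and 10.26 in WT 1 to 4. RaptorKO 2 was again the highest and RaptorKO 3 the lowest, and the SD was 0.23 in RaptorKO and 0.077 in WT. The Tnfrsf18 difference was 0.092 (SE 0.12, 95% interval -0.18 to 0.36, adjusted p = 0.845).

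Tnfrsf1b encodes TNFR2, the TNF receptor without a death domain. Its brighter probe set read 9.21, 9.54, 9.27 and 9.60 in RaptorKO 1 to 4, against 9.27, 9.51, 9.29 and 9.63 in WT 1 to 4. The groups spanned nearly the same range, with a difference of -0.017 (SE 0.13, 95% interval -0.29 to 0.26, adjusted p = 0.976). Its other probe set read 7.15, 7.42, 7.32 and 7.47 in RaptorKO 1 to 4, against 7.46, 7.55, 7.65 and 7.78 in WT 1 to 4. There only RaptorKO 4 reached into the WT range, and the difference was -0.27 (unadjusted p = 0.0350, adjusted p = 0.371 with every probe set tested). The probe sets of Tnfrsf1b thus disagreed on the size of a difference, and neither passed.

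Cd27 encodes CD27, the receptor for CD70, which is carried by most naive and resting T cells. It read 10.91, 11.18, 11.18 and 11.11 in RaptorKO 1 to 4, against 11.15, 10.90, 11.10 and 11.13 in WT 1 to 4. One low sample in each group set the spread, and the difference of 0.027 had a 95% interval of -0.20 to 0.26 (adjusted p = 0.954).

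The death-domain receptors did not pass either. Tnfrsf25, which encodes DR3, a receptor that expands regulatory T cells when engaged in mice, read 8.13, 7.97, 7.64 and 7.93 in RaptorKO 1 to 4, against 7.86, 7.83, 8.07 and 7.82 in WT 1 to 4. RaptorKO held both the highest and the lowest sample, and the difference was 0.021 (SE 0.12, 95% interval -0.24 to 0.28, adjusted p = 0.969). Fas, the receptor for Fas ligand that triggers apoptosis, read 7.13, 6.92, 6.79 and 6.21 in RaptorKO 1 to 4, against 6.65, 6.36, 6.95 and 6.72 in WT 1 to 4. RaptorKO 1 was the highest sample and RaptorKO 4 the lowest, the widest spread of any member at an SD of 0.39 in RaptorKO and 0.24 in WT. The Fas difference was 0.090 (SE 0.19, 95% interval -0.32 to 0.50, adjusted p = 0.910).

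Of the 3 ligands, Cd40lg and Ltb had negative differences. Cd40lg encodes CD40 ligand, the protein with which helper T cells stimulate B cells and dendritic cells. It read 6.65, 6.42, 6.67 and 6.79 in RaptorKO 1 to 4, against 6.83, 6.87, 6.97 and 7.17 in WT 1 to 4. Every RaptorKO value was below every WT value, with 6.79 in RaptorKO 4 close to 6.83 in WT 1. The mean was 6.64 ± 0.15 in RaptorKO and 6.96 ± 0.15 in WT (SD, n = 4 each), a difference of -0.32 (SE 0.12, 95% interval -0.58 to -0.072) that left WT 1.25-fold higher. The unadjusted p was 0.0161 and the adjusted p 0.223 in limma.

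Ltb encodes lymphotoxin beta, which forms membrane trimers with lymphotoxin alpha and binds the receptor encoded by Ltbr. It read 8.76, 8.79, 8.44 and 8.69 in RaptorKO 1 to 4, against 9.11, 8.69, 8.99 and 8.94 in WT 1 to 4. WT 2 lay within the RaptorKO range and the other 3 WT samples were above all of them. The difference was -0.26 (SE 0.12, 95% interval -0.52 to 0.0046, unadjusted p = 0.0535, adjusted p = 0.391). Tnfsf8, which encodes CD30 ligand, read 6.89, 7.16, 6.93 and 7.10 in RaptorKO 1 to 4, against 6.92, 6.79, 6.99 and 7.11 in WT 1 to 4, with overlapping groups and a difference of 0.070 (95% interval -0.17 to 0.31, adjusted p = 0.871).

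**Figure D3:**
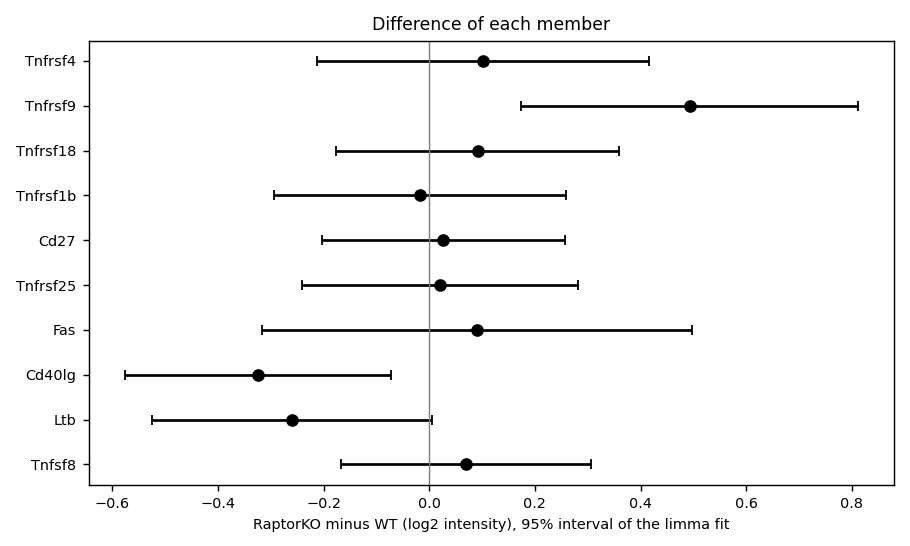
RaptorKO minus WT on the log2 intensity scale for each member, with 95% intervals of the limma fit (4 arrays in each group). The unadjusted intervals of Tnfrsf9 (0.17 to 0.81) and Cd40lg (-0.58 to -0.072) lie to 1 side of 0. Those of all other members span 0, with the upper end for Ltb at 0.0046.

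The members were then compared within replicates 1 and 2 and within replicates 3 and 4. Tnfrsf9 was higher in both RaptorKO samples of each pair, by 0.72 in replicates 1 and 2 and by 0.26 in replicates 3 and 4. Cd40lg was lower in both RaptorKO samples of each pair, with differences of -0.31 and -0.33. For Tnfrsf9 and Cd40lg the order within pairs was fixed, because their groups do not overlap, so only the sizes add to it. Ltb was negative in both pairs, at -0.12 in replicates 1 and 2 and -0.40 in replicates 3 and 4. Fas gave 0.52 in replicates 1 and 2, where both RaptorKO samples were above both WT samples, and -0.34 in replicates 3 and 4. Tnfrsf4 (0.34 and -0.14), Tnfrsf18 (0.28 and -0.096) and Tnfrsf25 (0.20 and -0.16) had the same order of signs, and so did Tnfsf8 (0.17 and -0.034). Cd27 and the brighter Tnfrsf1b probe set stayed within 0.031 of 0 in both pairs. The other Tnfrsf1b probe set was lower in both RaptorKO samples of each pair. It read 7.15 and 7.42 against 7.46 and 7.55 in replicates 1 and 2. In replicates 3 and 4 it read 7.32 and 7.47 against 7.65 and 7.78.

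The difference between the pairs was tested as an interaction of genotype with replicate set over all 11413 genes. Of these, 0 genes or 0% passed at an adjusted p under 0.05, while 1304 or 11.4% had an unadjusted p under 0.05. Among the members 0 passed and 1 had an unadjusted p under 0.05. That member was Fas, whose difference in replicates 3 and 4 minus that in replicates 1 and 2 was -0.85 (SE 0.29, adjusted p = 0.361). For Tnfrsf9 the interaction was -0.46 (adjusted p = 0.509) and for Cd40lg -0.022 (adjusted p = 0.972).

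**Figure D4:**
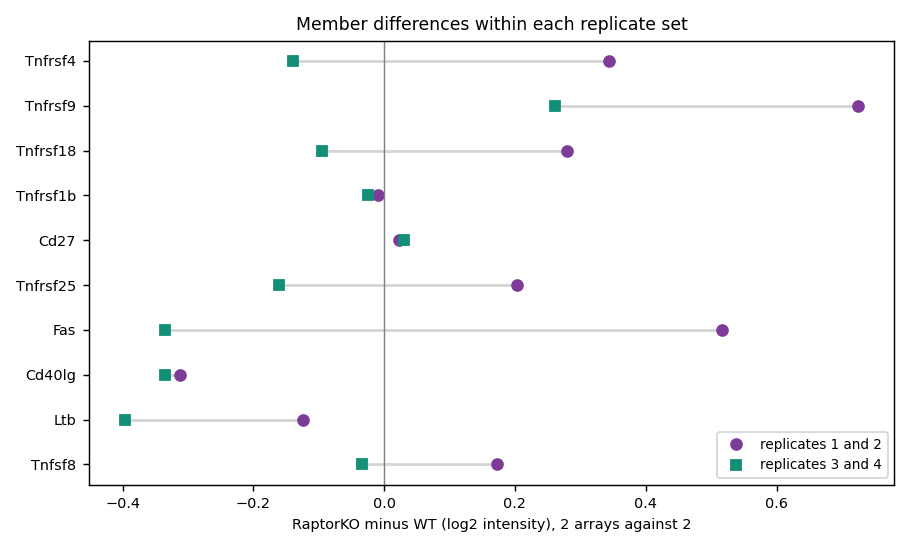
RaptorKO minus WT on the log2 intensity scale for each member within replicates 1 and 2 (purple circles) and within replicates 3 and 4 (green squares), 2 arrays against 2 in each. Each member is drawn from its brightest probe set, so the other Tnfrsf1b probe set is not shown. Tnfrsf9, Cd40lg and Ltb lie on 1 side of 0 in both pairs, and Tnfrsf1b and Cd27 lie close to 0. For Tnfrsf9 and Cd40lg the side follows from groups that do not overlap. Fas moves between 0.52 and -0.34, and none of the 10 interactions passed.

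The receptors and ligands that pair with the members were taken from lists of other family genes. Of 21 other TNF receptors, 16 were tested; 0 passed, 6 were positive and 10 negative, with a median of -0.071. The smallest p belonged to Tnfrsf8, the CD30 receptor for the ligand encoded by Tnfsf8, which read 4.92, 4.60, 4.37 and 4.55 in RaptorKO 1 to 4, against 4.71, 4.96, 4.97 and 5.13 in WT 1 to 4. These values lie near the filter, the groups overlap, and the difference was -0.34 (adjusted p = 0.292). Cd40, the receptor for CD40 ligand, read 8.17, 7.87, 8.21 and 8.19 in RaptorKO 1 to 4, against 7.82, 7.98, 7.86 and 7.87 in WT 1 to 4. It was high in 3 of 4 RaptorKO samples, with a difference of 0.23 (adjusted p = 0.393), opposite in sign to that of Cd40lg. Ltbr, the receptor for lymphotoxin beta, had a difference of -0.0092 (adjusted p = 0.988).

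Of 15 other TNF ligands, 8 were tested; 0 passed, 6 were positive and 2 negative, with a median of 0.13. Cd70, which encodes the ligand of CD27, read 5.31, 5.42, 5.38 and 5.37 in RaptorKO 1 to 4, against 4.84, 4.78, 5.33 and 4.99 in WT 1 to 4. RaptorKO samples were tightly grouped, WT 3 was within their range, and the difference was 0.38 (unadjusted p = 0.00901, adjusted p = 0.169). The WT values lie near the filter, and Cd70 was above the 40th percentile on 7 of 8 arrays. Tnfsf10, which encodes the death ligand TRAIL, read 7.99, 8.14, 7.83 and 8.03 in RaptorKO 1 to 4, against 7.90, 7.67, 7.61 and 7.66 in WT 1 to 4, a difference of 0.29 (adjusted p = 0.254). Tnf, the ligand of TNFR2, had a difference of -0.12 (adjusted p = 0.744), and Lta, the partner of lymphotoxin beta, -0.047 (adjusted p = 0.927). The ligands of OX40 (Tnfsf4) and Fas (Fasl) were above the 40th percentile on 0 of 8 arrays and that of 4-1BB (Tnfsf9) on 2, so they were not tested, and the ligands of DR3 (Tnfsf15) and GITR (Tnfsf18) were not analysed here.

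Adaptors, death signalling genes and NF-kappaB genes were described next; whether their share of calls differs from that of the receptors and ligands was not tested. Of 33 adaptors and death signalling genes 29 were tested, and 1 fell while 0 rose, or 3.45% against 1.96% of all genes; 14 were positive and 15 negative, with a median of -0.020. The gene that fell was Map3k5, which encodes ASK1, a kinase upstream of JNK and p38 that TRAF2 activates after TNF binding. It read 6.93, 6.80, 6.90 and 7.28 in RaptorKO 1 to 4, against 7.70, 7.73, 7.68 and 7.92 in WT 1 to 4. All RaptorKO samples were below all WT samples, and the difference was -0.78 (SE 0.12, adjusted p = 0.00652), or 1.72-fold higher in WT. A second Map3k5 probe set was also lower in every RaptorKO sample, with a difference of -0.62 (adjusted p = 0.0787 with every probe set tested). The Map3k5 call held without any 1 array and was lost within replicates 1 and 2 alone (adjusted p = 0.117) and within replicates 3 and 4 alone (adjusted p = 0.0952).

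Of 22 NF-kappaB pathway genes and targets 17 were tested, and 1 rose and 1 fell, or 11.8% against 1.96% of all genes; 9 were positive and 8 negative, with a median of 0.0072. Rel encodes c-Rel, an NF-kappaB subunit needed for regulatory T cell development in mice. It read 8.99, 8.96, 8.83 and 8.98 in RaptorKO 1 to 4, against 8.47, 8.13, 8.62 and 8.46 in WT 1 to 4, and rose by 0.52 (SE 0.12, adjusted p = 0.0437), or 1.43-fold, with no overlap. Ikbkb encodes IKKβ, the kinase that releases NF-kappaB by phosphorylating its inhibitors. It read 7.77, 7.88, 7.68 and 7.77 in RaptorKO 1 to 4, against 8.23, 8.11, 8.16 and 8.23 in WT 1 to 4, with a difference of -0.41 (SE 0.093, adjusted p = 0.0496) and no overlap. The 3 further Ikbkb probe sets also had lower RaptorKO means, with differences of -0.50, -0.40 and -0.20. None of them passed with every probe set tested (limma, adjusted p = 0.0537, 0.169 and 0.548). Probe sets of 1 gene share the same RNA, so they are not separate evidence.

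The Rel and Ikbkb calls lie at the threshold, and each held in 7 of the 20 alternative analyses. Leaving out any 1 of the 8 arrays ended the Rel call (adjusted p between 0.0526 and 0.109), as did testing every probe set (0.0723) and using no filter (0.0519). The Ikbkb call remained without RaptorKO 2 (adjusted p = 0.0396) and was lost without each of the other 7 arrays (highest adjusted p 0.157). It was also lost with a term for the replicate sets that differ in sex-linked transcripts (adjusted p = 0.0574). Testing every probe set (adjusted p = 0.0793) and using no filter (0.0591) ended the Ikbkb call too.

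**Figure D5:**
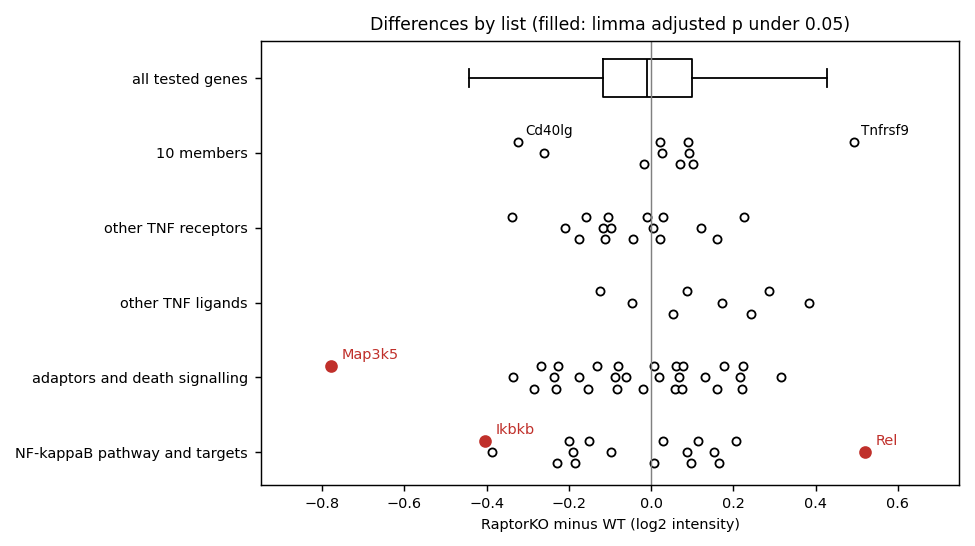
RaptorKO minus WT on the log2 intensity scale for the tested genes of the members and 4 lists of the TNF pathway, 1 point per gene (cell marker lists are not drawn), filled red where the limma adjusted p was under 0.05; the box at the top holds the middle 50% of all 11413 tested genes, its line the median, and its whiskers span the 2.5th to 97.5th percentiles. The filled points of these lists are Map3k5 (-0.78), Ikbkb (-0.41) and Rel (0.52), and Tnfrsf9 and Cd40lg lie at the ends of the members' range without passing.

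The 8 values of Tnfrsf9 were most like those of Rpl13, a ribosomal protein gene (Pearson r = 0.988), Slf1 (r = 0.981) and Hgf, which encodes hepatocyte growth factor (r = 0.975). Their own differences were 0.074 for Rpl13, 0.21 for Slf1 and 0.62 for Hgf, and none passed (adjusted p = 0.820, 0.365 and 0.120). Cd40lg was most like Rpap1 (r = 0.960), Cldnd1 (r = 0.959) and 2810408I11Rik (r = 0.956), with differences of -0.24, -0.38 and -0.24 and no call. These correlations are over 8 arrays that share the genotype difference and were the highest among 11413 genes, so they are descriptions only.

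Markers of other cells in the sort were set beside these results. In bulk samples, fewer cells of a type and less RNA per cell cannot be told apart. Of 11 tested myeloid and dendritic cell markers 10 had a positive difference (median 0.44, none passed), and their summed linear intensity was 1229 to 2332 in RaptorKO and 705 to 1657 in WT; Lyz2 differed by 0.61 and Mpeg1 by 0.95, and Mpeg1 passed in replicates 3 and 4 alone (adjusted p = 0.0368). Of the list's 16 markers with a probe set, the 11 tested ones included Csf1r, Cd68, C1qb, C1qc and Lyz2 above the 40th percentile on all 8 arrays and C1qa and Mpeg1 on 7; of the 5 under the filter, Adgre1, Itgam and Xcr1 were above it on 0 arrays, Itgax on 1 and Cd14 on 2. All 7 tested conventional CD4 T cell markers, a list that includes Cd40lg, had a negative difference (median -0.12, none passed), with sums of 5081 to 5809 in RaptorKO and 5402 to 6335 in WT. All 6 tested general T cell markers were negative too (median -0.22, none passed), with sums of 8104 to 8889 in RaptorKO and 9060 to 10261 in WT, and Cd5 came closest to a call at -0.48 (adjusted p = 0.0592). Cd5 was called in 6 of the 20 alternative analyses, among them the intensity trend (adjusted p = 0.00935), array weights (0.0228) and leaving out WT 2 (0.0177).

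Of 9 tested regulatory T cell markers 4 were positive and 5 negative (median -0.12), and 1 passed, or 11.1% against 1.96% of all genes. It was Nrp1, which encodes neuropilin-1 and fell by 1.44 (adjusted p = 0.000736). Groups did not overlap for 4 of these markers, or 44.4% against 8.82% of all genes. They were Nrp1, Ctla4 (-0.32), Izumo1r (-0.33) and Ikzf2 (0.21), and of them only Nrp1 passed. B cell markers were positive in 5 of 6 tested genes (median 0.12, none passed), with sums of 392 to 573 in RaptorKO and 308 to 620 in WT, and Pax5, Cd79a, Cd79b, Cd22 and Cr2 were above the percentile on all 8 arrays, Blk on 7, Ms4a1 on 3 and Ebf1 on 0. CD8 and NK cell markers were positive in 3 of 7 (median -0.092, none passed), with sums of 826 to 1181 in RaptorKO and 693 to 1326 in WT. Nkg7 differed by 0.87, Cd8b1 by -0.77 and Cd8a by -1.03 (adjusted p = 0.341). Cd8a spread widely in WT, from 5.95 in WT 1 to 8.48 in WT 2, and its other probe sets differed by -0.73 and -0.75. With a replicate block Cd8b1 (adjusted p = 0.0160) and Nkg7 (0.0189) passed. Cd8b1 also passed in replicates 3 and 4 alone (0.0243), without RaptorKO 2 (0.0376) and without WT 1 (0.0319), and Nkg7 without WT 2 (0.0390). Cd8a, Cd8b1, Nkg7, Gzmb and Prf1 were above the percentile on all 8 arrays, Gzma on 7, Eomes on 6, Klrk1 on 1, and Klrb1c and Ncr1 on 0. Cd40, 4-1BB and CD40 ligand are also made by such cells, and the part of these markers in the differences of Cd40, Tnfrsf9 and Cd40lg was not tested.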

How the data were processed

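The 8 samples were hybridised to single-channel arrays, 1 for each RNA sample. Each probe set has a deposited log2 intensity, computed by the authors with RMA per the submitters' processing notes (version not given in the sources used here). No further normalization was applied. Array medians lay between 5.21 and 5.29, with the lowest in RaptorKO 2. The 75th percentile was highest in RaptorKO 2 (6.798) and lowest in WT 2 (6.668). The number of arrays limits the precision. Groups and replicate numbers came from the sample titles. Of 45141 probe sets, 104 were array controls, 28898 listed 1 gene (28689 of them matched through Entrez identifiers to RefSeq, assembly GRCm38.p6), 551 listed several and 15692 listed none; probe sets of the last 2 kinds were not named. Each of 17097 genes was represented by its probe set with the highest mean over 8 arrays, and a gene was tested if this probe set passed the 40th percentile of 4 or more arrays (11413 genes).

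RaptorKO minus WT was fitted with lmFit and eBayes of limma 3.58.1 (R 4.3.3) without covariates, adjusted by Benjamini-Hochberg over all tested genes and called at an adjusted p under 0.05. Adjusted p-values come from this fit unless another is named. The interaction fit added the replicate set and its product with genotype. The script was tested on simulated data. No 2 arrays were identical (r between 0.969 and 0.990). Replicate numbers were not taken to pair samples, since the labels do not state a pairing. Deviations of same-numbered samples correlated between -0.15 and 0.16, which cannot exclude one.

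The members and lists were chosen with earlier results of these data known. Named genes were all members, called genes of each list (up to 4) or otherwise the 2 with the smallest p, the 3 genes most like each of the 2 leading members, and 4 checks of the labels; partner ligands and receptors, further markers and sex-linked genes were added after their values were seen. Alternatives tried were quantile normalization, a replicate block, averaging the probe sets of each gene, every probe set tested, a 60th percentile filter or none, centring on the 75th percentile, an intensity trend, array weights, a term for replicate set, each set alone and each array left out. Plots used matplotlib 3.10.9 (Python 3.11.15).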

Additional observations from a re-analysis of the deposited data

Results flagged for a closer look

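A single sample far from the other 3 of its group was looked for in the 54 groups of 27 named genes, and 4 were found, where chance flags about 1 in 20 groups. Tnfrsf25 read 8.07 in WT 3 and 7.82 to 7.86 in the other WT samples; the RaptorKO samples ran between 7.64 and 8.13. Cd40 read 7.87 in RaptorKO 2 and 8.17 to 8.21 in the other RaptorKO samples. Nrp1 read 8.68 in WT 2 and 9.23 to 9.31 in the other WT samples, all above the RaptorKO values. Cd28 read 9.55 in WT 4 and 9.40 to 9.43 in the other WT samples.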

How the results depend on the processing

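Among 20 alternative analyses, 0 members were called in each of them except quantile normalization, where 1 was: Tnfrsf9 (0.54, adjusted p = 0.0485). Over all its alternatives Tnfrsf9 ranged between 0.26 and 0.72 (adjusted p between 0.0485 and 0.352), Cd40lg between -0.38 and -0.25 and Ltb between -0.40 and -0.12, so these 3 members kept their sign throughout. For Tnfrsf9 and Cd40lg, whose groups do not overlap, the sign could not change with an array left out or within 1 replicate set. The other 7 members changed sign at least once without passing in any of the alternatives. Without RaptorKO 2 the difference was 0.35 for Tnfrsf9, 0.0040 for Tnfrsf4 and 0.0013 for Tnfrsf18. The count of called genes was 370 with an intensity trend (the cause was not tested), and, with fewer samples, 10 in replicates 1 and 2 alone and 130 in replicates 3 and 4 alone. Leaving out 1 array gave between 98 and 251 called genes and 0 members: without RaptorKO 1 it was 133 and without RaptorKO 3 144, and with WT 1, WT 2, WT 3 or WT 4 left out it was 121, 149, 118 or 98. With a replicate block 175 genes and 0 members were called, and of the genes named as called Rel (adjusted p = 0.0941) and Ikbkb (0.149) were lost, while the CD8 and NK cell markers Cd8b1 (0.0160) and Nkg7 (0.0189) were gained and the myeloid marker Mpeg1 reached 0.0518; same-numbered samples correlated between -0.15 and 0.16 in their deviations, and 2 of 4 RaptorKO samples correlated best with the WT sample of their own number. The interaction with replicate set was called for 0 members under the 3 alternatives run for it (no filter, a 60th percentile filter and an intensity trend). The 95% interval of a member reached between 0.23 and 0.41 to each side of its difference. Differences smaller than that reach are beyond what 4 arrays in each group resolve. The interval is unadjusted and the adjusted test asks for more, since Tnfrsf9 at 0.49 was not called in the main fit. Probe sets near or under the 40th percentile, such as those of Tnfrsf8, Cd70, Fasl and Tnfsf4, are not resolved either at this signal.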
